A study of Mus musculus with 18 samples.

Results

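The comparison described here is the late response of p53 wild-type (p53WT) acute myeloid leukemia (AML) to CX-5461, a compound that blocks transcription of ribosomal DNA by RNA polymerase I (Pol I). It sets 3 samples taken after 72 h of CX-5461 against 3 samples taken after 72 h of vehicle, 6 of the 18 samples of the series, chosen by genotype, treatment and time alone. All 12838 genes of the authors' deposited table for this comparison were used, and 12362 of them could be paired with a symbol. The cells were MLL/ENL Nras leukemia cells of p53WT genotype, carried as a syngeneic transplant in C57BL/6 mice. Mice with established disease received CX-5461 or vehicle, and GFP-positive cells were sorted from their bone marrow. The 3 CX-5461 and 3 vehicle samples of the same genotype at 10 h, handled in the same way, serve below as the early comparison. All 12 samples therefore share the MLL/ENL fusion, the Nras oncogene, the GFP marker, the host strain and the sort. The labels do not say how many independent leukemias, clones or recipient mice gave the samples, so the p-values measure only the spread between these samples. The 10 h titles carry a tag that the 72 h titles lack, and no label used here says what it means. Time therefore cannot be told apart from whatever that tag marks.

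Inhibition of Pol I starves the assembly of ribosomes. Ribosomal proteins that are left without ribosomal RNA can bind MDM2, the ubiquitin ligase that keeps p53 low, so p53 target genes are the classical readout of this stress. MLL fusions hold myeloid progenitors in an immature state through HOXA genes and MEIS1, and release from that state is usually read from the loss of KIT and CD34 and the gain of granule genes made late in neutrophil maturation. Ribosome production is also tied to MYC, to the mitochondria and to the supply of amino acids, lipids and nucleotides.

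The table gives, per gene, the log2 fold change of CX-5461 over vehicle, the mean level in counts scaled to library size (CPM), a p-value and a false discovery rate (FDR), and no value per library. Unless another source is named, each log2 fold change, FDR and mean level at 72 h or 10 h below is that of the authors' deposited table for that time. A gene is said to have risen or fallen where this FDR was under 0.05. Levels in each group were computed from the mean level and the fold change. In the 10 h libraries, where counts could be checked, the same computation lay within -0.283% to 0.946% of the counted vehicle level for the central 95% of the 10393 genes at 5 CPM or more. Standard errors (SE) were recovered by dividing the log2 fold change by the two-sided normal quantile that the deposited p-value implies.

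At 72 h, 4002 of the 12838 genes in the authors' deposited table passed the threshold, or 31.2%. CX-5461 raised 2064 of them (16.1% of the genes) and lowered 1938 (15.1%). Most changes were small, with a median log2 fold change of 0.46 among the genes that rose and -0.43 among those that fell. At least 2-fold changes were unevenly split, with 419 genes higher and 146 lower. The median of all genes was -0.008. Scaling to library size holds this centre near 0, so a change in total RNA per cell could not be seen. Among the 54 gene lists used below, with 1283 distinct genes measured, 269 rose and 193 fell. List medians lay over 1 for marrow macrophage, red cell membrane, mast cell and eosinophil, MHC class II, late neutrophil granule and the few listed lymphoid genes. They lay lowest for interferon-stimulated genes, genes of mitochondrial DNA and MHC class I genes. Among the lists over 1, those of red cell, mast cell, class II and lymphoid genes hold members that are low with vehicle. Such a gene enters the table only if it is high enough elsewhere, so these medians cannot stand for the lists as a whole.

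**Figure D1:**
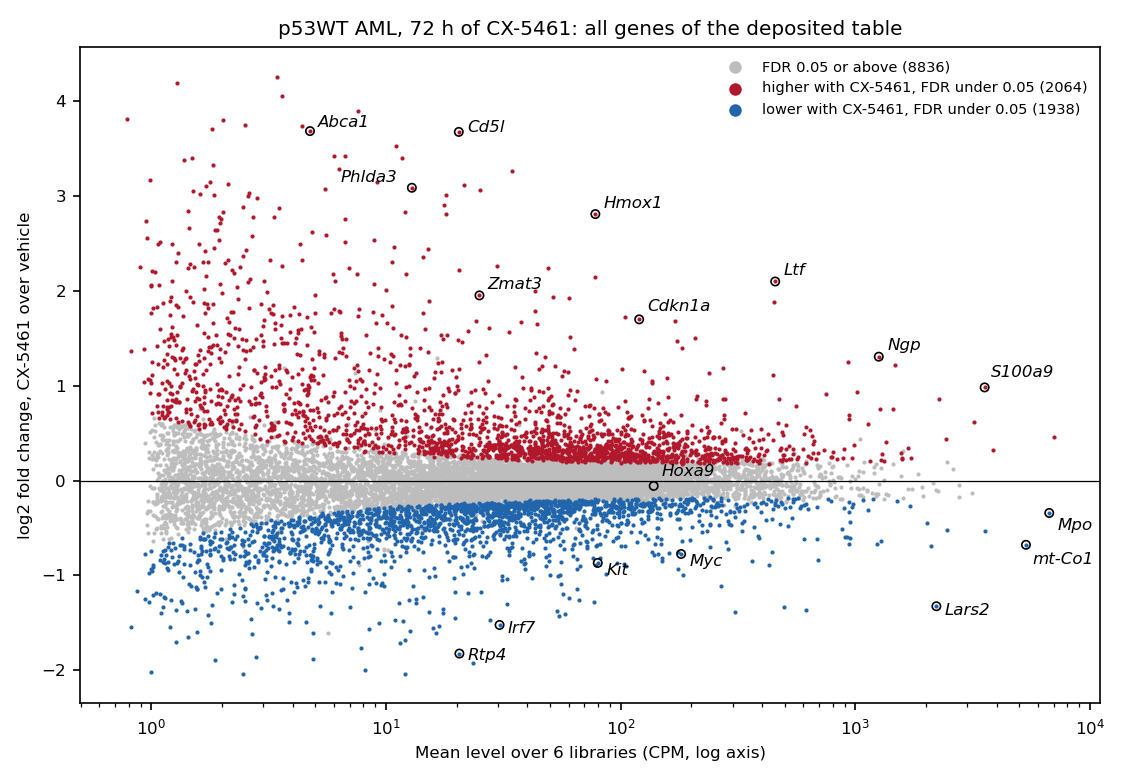
Log2 fold change of CX-5461 over vehicle at 72 h (vertical axis) against mean level in CPM (horizontal log axis) for all 12838 genes of the authors' deposited table, with 2064 genes that rose in red, 1938 that fell in blue and the rest in grey. The labelled genes are described in the text; the largest fold changes lie among genes of low level, while Ltf, Ngp, S100a9, Mpo and mt-Co1 are abundant.

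The labelled cell type was checked against its markers. Ptprc, Kit, Hoxa9, Meis1, Mpo, Itgam and Cd34, fixed as markers of this leukemia, were all in the table with a summed level of 8962 CPM with vehicle and 8021 CPM with CX-5461. Markers of T and NK cells were nearly all below the table's cutoff. Only Cd4 and Nkg7 of the 10 were listed, and Cd3e, Cd3d, Cd3g, Cd8a and Trbc1 were not. Of the B cell markers, Pax5, Ebf1, Ms4a1 and Vpreb1 were not listed either. All 10 neutrophil markers rose, from a summed 6036 to 12904 CPM. Of the 7 listed mast cell, basophil and eosinophil markers 6 rose, from a summed 42.3 to 135 CPM. Of the 10 monocyte and macrophage markers 5 rose and 2 fell, with a median of 0.32 and a summed level of 1751 CPM with vehicle and 1513 CPM with CX-5461. Of the 10 red cell markers 4 rose, with a summed level of 1014 CPM with vehicle and 986 CPM with CX-5461. The share of cells of each kind in the sorted samples was not tested, and in sorted pools fewer cells of a type and less RNA per cell cannot be told apart.

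The genes named in the label of the model were measured as well, and were chosen after their values were seen. Kmt2a, the mouse gene of MLL, went from 405 to 607 CPM (log2 fold change 0.58, recovered SE 0.105, FDR 4.24e-07). Mllt1, the mouse gene of ENL, went from 169 to 217 CPM (0.36, FDR 0.00121), and Nras from 211 to 268 CPM (0.34, FDR 1.57e-04). All 3 rose by less than 2-fold. Reads of the endogenous genes and of an introduced oncogene were not separated. Trp53, which encodes p53, stood at 169 CPM with vehicle and 158 CPM with CX-5461 (-0.10, FDR 0.332).

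The p53 response was still present at 72 h. Of 17 measured p53 targets that act in arrest and feedback, 13 rose and none fell, with a median log2 fold change of 0.80. Phlda3, a p53-induced repressor of AKT, went from 2.72 to 23.1 CPM (log2 fold change 3.08, recovered SE 0.164, FDR 2.83e-75). Cdkn1a, the CDK inhibitor p21, went from 56.6 to 183 CPM (1.70, SE 0.137, FDR 1.44e-32). Zmat3, a p53-induced RNA-binding protein, went from 10.3 to 39.8 CPM (1.95, FDR 4.32e-79), and Sesn2, a sestrin that restrains mTORC1, from 9.36 to 27 CPM (1.53, FDR 2.70e-34). Mdm2, the negative regulator of p53, rose less, from 85.2 to 128 CPM (0.59, FDR 1.21e-10). The vehicle and CX-5461 levels of Phlda3 differed more than 8-fold, those of Mdm2 by 1.5-fold.

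Targets that promote apoptosis moved less. Of 14 measured, 6 rose and none fell, with a median of 0.29. Bax, the pore-forming executioner of the mitochondrial pathway, went from 89.9 to 131 CPM (0.55, FDR 1.34e-07). Bbc3, the BH3-only protein PUMA, went from 6.79 to 9.9 CPM (0.54, FDR 5.78e-05), and Tnfrsf10b, a death receptor for TRAIL, from 8.48 to 13.3 CPM (0.65, FDR 2.53e-07). Pmaip1, the BH3-only protein NOXA, did not pass, at 43.6 and 51.3 CPM (0.24, FDR 0.0588), nor did Fas (0.28, FDR 0.0584). Of 13 targets in metabolism and repair 4 rose, among them Epha2 (1.78, FDR 2.22e-10) and Slc19a2, a thiamine transporter (0.65, FDR 1.50e-06). In the wider BCL2 and caspase list of 21 genes, 4 rose and 6 fell. The survival gene Mcl1 went from 215 to 336 CPM (0.64, FDR 4.34e-11), and Bcl2 from 28.5 to 23.6 CPM (-0.27, FDR 0.0316).

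Set beside the 10 h comparison, in which 453 genes were higher (3.57% of those tested) and 866 lower (6.83%), the median of the arrest targets was 0.82 at 10 h and that of the apoptosis targets 0.70. The difference between the responses, 72 h minus 10 h, was tested per gene on the 12277 genes of both tables with a normal test on the recovered SEs and Benjamini-Hochberg adjustment. It passed an adjusted p of 0.05 for 2560 genes, or 20.9%, with 1436 higher at 72 h (11.7%) and 1124 lower (9.16%). Of the 17 arrest targets the difference passed upward for 3 and downward for 7, and of the 14 apoptosis targets for 1 and 6. Phlda3 had a log2 fold change of 3.84 at 10 h (difference -0.76, adjusted p = 0.0119). Bbc3 had a log2 fold change of 1.68 at 10 h, and its difference of -1.14 passed (adjusted p = 9.93e-08). Tnfrsf10b had 1.60 at 10 h (difference -0.95, adjusted p = 2.96e-05), Slc19a2 1.83 (difference -1.18, adjusted p = 1.44e-08) and Cdkn1a 2.25 (difference -0.56, adjusted p = 0.0244). The responses of Zmat3 (difference 0.26, adjusted p = 0.358), Sesn2 (-0.23, adjusted p = 0.538) and Mdm2 (-0.10, adjusted p = 0.737) did not pass. Plk3, a polo-like kinase listed as an arrest target, moved the other way, from a log2 fold change of -0.19 at 10 h to 1.32 at 72 h (adjusted p = 1.96e-06).

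Stem and progenitor markers split at 72 h. Of 14 measured, 6 fell and 4 rose, with a median of -0.09. Kit, the receptor for stem cell factor, went from 103 to 56.6 CPM (log2 fold change -0.87, recovered SE 0.124, FDR 8.44e-11), Cd34 from 20.1 to 8.6 CPM (-1.23, FDR 2.21e-05), and Cd27, a TNF receptor of lymphoid cells and early progenitors, from 13.7 to 4.86 CPM (-1.50, FDR 1.41e-26). Prom1 and Cd9, membrane proteins used as stem cell markers, rose, by 0.59 (FDR 5.66e-10) and 0.70 (FDR 8.18e-11). The CX-5461 levels of Kit and Cd34 were thus about 0.548 and 0.427 of the vehicle levels.

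The MLL fusion program itself moved little. Of 21 target and cofactor genes 5 fell and none rose, with a median of -0.10. Hoxa9 stood at 141 CPM with vehicle and 136 CPM with CX-5461 (-0.06, FDR 0.722), and Meis1, its DNA-binding partner, at 134 and 146 CPM (0.12, FDR 0.376). Myb, a transcription factor that MLL leukemias need, stood at 1418 and 1244 CPM (-0.19, FDR 0.121). The 5 that fell were Hoxa3 (-0.56, FDR 0.00174), Zeb2 (-0.47, FDR 1.36e-07), Psip1 (-0.30, FDR 0.00546), Cdk6 (-0.29, FDR 0.00208) and Bcl2. Psip1 encodes LEDGF, which tethers MLL to chromatin.

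Among 20 myeloid transcription factors 7 rose and 3 fell. Irf8, which directs progenitors toward monocytes and dendritic cells, went from 79.4 to 29.6 CPM (-1.42, recovered SE 0.287, FDR 8.93e-06). Cebpa, which starts granulocyte commitment, went from 221 to 131 CPM (-0.75, SE 0.0768, FDR 2.17e-20). Cebpe, which drives secondary granule genes, went from 131 to 163 CPM (0.31, FDR 0.00818), with Cebpd at the same size (0.31, FDR 0.00199). Maf, a transcription factor of macrophages, rose from 1.14 to 12.2 CPM (3.41, FDR 7.66e-23). Spi1, which encodes PU.1, did not pass (0.18, FDR 0.0711).

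Neutrophil granule genes moved in opposite directions by stage. Primary granule genes, made by promyelocytes, fell in 7 of 11 cases and rose in 1, with a median of -0.22. Mpo, myeloperoxidase, went from 7500 to 5918 CPM (-0.34, recovered SE 0.0929, FDR 0.00147), Elane, neutrophil elastase, from 4204 to 2912 CPM (-0.53, FDR 1.10e-07) and Prtn3, proteinase 3, from 2891 to 2018 CPM (-0.52, FDR 3.08e-09). The single rise was Fcnb, ficolin B (0.95, FDR 2.05e-13). Secondary and tertiary granule genes, made later, rose in 20 of 24 cases, and none fell. Their median was 1.05 and their summed level went from 9595 to 18813 CPM. Ltf, lactoferrin, went from 173 to 739 CPM (2.10, SE 0.123, FDR 2.47e-61), Ngp, a granule protein, from 726 to 1793 CPM (1.30, FDR 2.02e-32) and S100a9, a subunit of calprotectin, from 2394 to 4725 CPM (0.98, FDR 9.70e-16). Ly6g, the surface marker of mouse neutrophils, went from 1.36 to 8.33 CPM (2.61, FDR 3.31e-47). Chil3 (0.44, FDR 0.0562), Olfm4 (0.52, FDR 0.103), Slpi (0.28, FDR 0.191) and Ltb4r1 (0.06, FDR 0.677) were the 4 that did not pass.

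**Figure D2:**
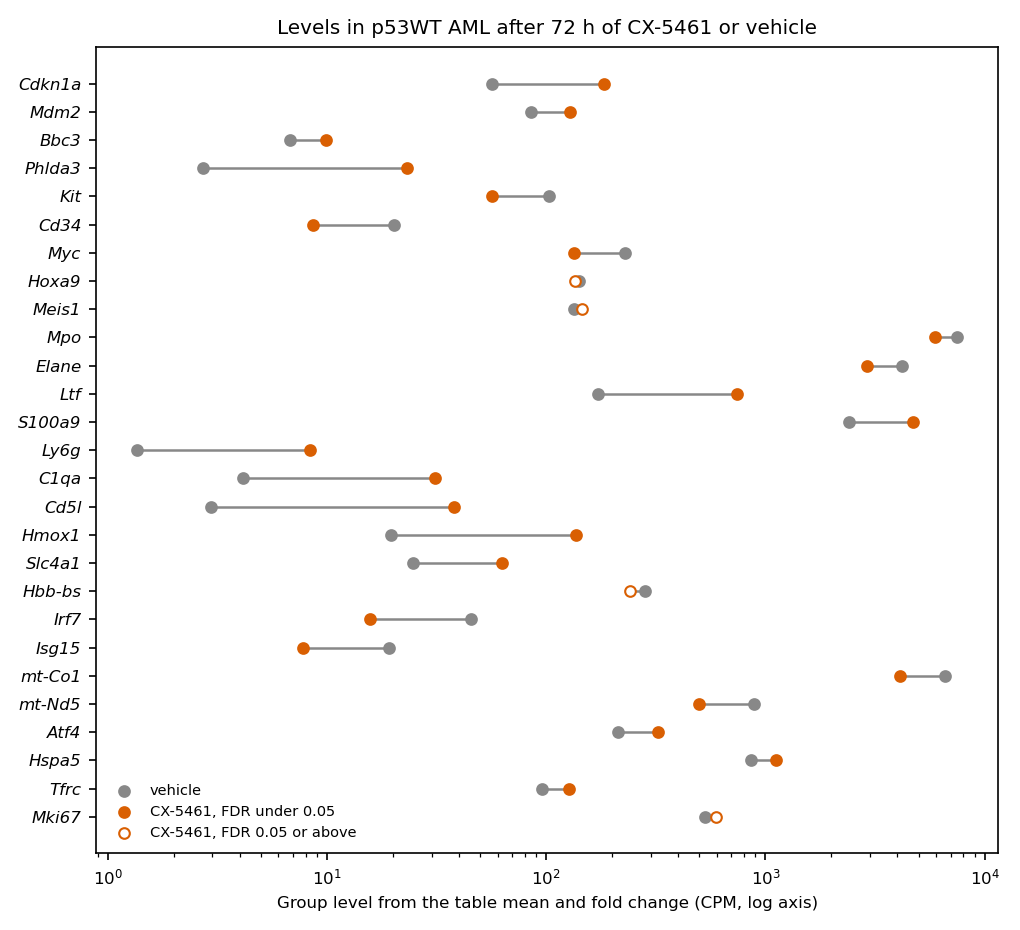
Levels of 27 genes with vehicle (grey) and CX-5461 (orange; open where the FDR was 0.05 or above) at 72 h in CPM on a log axis, computed from the mean level and fold change of the authors' deposited table, with no error bars because the table gives no value per library. Levels of Kit, Cd34, Mpo, Irf7 and mt-Co1 lie lower with CX-5461, those of Cdkn1a, Ltf, C1qa and Hmox1 higher, and those of Hoxa9, Meis1 and Mki67 nearly coincide; levels of different genes are not comparable, since CPM is not scaled to length.

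Surface receptors of neutrophils and monocytes were mixed, with 19 of 33 higher and 6 lower. The formyl peptide receptors Fpr1 (2.83 to 9.74 CPM, log2 fold change 1.78, FDR 1.13e-20) and Fpr2 (6.49 to 24.1 CPM, 1.89, FDR 5.76e-41) rose, as did the chemokine receptor Cxcr2 (0.93, FDR 4.52e-20). Itgam and Itgb2, the chains of the Mac-1 integrin, went from 700 to 1336 CPM (0.93, recovered SE 0.111, FDR 3.18e-15) and from 718 to 1158 CPM (0.69, FDR 5.59e-08). Among the 6 that fell were Ccr2, the chemokine receptor of classical monocytes, at -0.54 (FDR 0.00333) and the Fc receptor Fcgr3 at -0.41 (FDR 4.59e-04). The growth factor receptors Csf1r (-0.24, FDR 0.0862) and Csf3r (-0.19, FDR 0.115) did not pass. Of the 6 phagocyte oxidase genes, which make the superoxide of the respiratory burst, 5 rose. Cybb, the catalytic subunit, went from 150 to 328 CPM (1.13, FDR 5.00e-19) and Ncf1, a cytosolic subunit, from 501 to 704 CPM (0.49, FDR 4.06e-07). Only the partner subunit Cyba did not pass (0.18, FDR 0.0585).

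Genes of resident marrow macrophages showed the largest median of all 54 lists, 2.81, with 16 of 19 measured members higher and none lower. Cd5l, a secreted macrophage survival factor, went from 2.97 to 37.9 CPM (3.67, recovered SE 0.367, FDR 2.41e-21), Siglec1, the sialoadhesin of marrow macrophages, from 1.77 to 20.3 CPM (3.52, FDR 1.42e-15) and Mertk, a receptor for the uptake of dead cells, from 1.03 to 11 CPM (3.42, FDR 5.26e-11). The complement genes C1qa, C1qb and C1qc rose together from about 4 CPM to 31.1, 31.6 and 31.9 CPM (2.90, 2.81 and 3.01; FDR 7.75e-14, 5.02e-15 and 2.56e-17). Axl (3.26, FDR 4.24e-13), Mrc1 (3.11, FDR 4.05e-14) and Hmox1, heme oxygenase (19.5 to 137 CPM, 2.81, FDR 1.01e-38), had folds of similar size. Adgre1, which encodes F4/80, stood at 153 and 169 CPM (0.15, FDR 0.39) and Vcam1 at 255 and 275 CPM (0.11, FDR 0.651). The summed level of the list went from 635 to 1231 CPM. The broader monocyte and macrophage markers given above share C1qa, C1qb, C1qc, Adgre1, Vcam1, Mrc1 and Cd68 with the list and add Csf1r, Ccr2 and Ly6c2. Their summed level was lower with CX-5461, although 5 of the 10 rose. Only Ccr2 and Ly6c2 fell, and Ly6c2, whose levels are given below, held most of the sum. Whether the sorted samples held macrophages was not tested.

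MHC class II presentation genes followed the macrophage genes in direction, with 6 of 11 higher and 2 lower and a median of 1.17. Cd74, the invariant chain, went from 10.3 to 49.4 CPM (2.26, recovered SE 0.196, FDR 4.16e-28), and H2-Aa, H2-Eb1 and H2-Ab1, chains of the class II molecule, rose by 2.30, 2.07 and 1.21 (FDR 1.58e-23, 2.15e-27 and 6.81e-21). Ciita, the master activator of class II, went from 0.324 to 1.82 CPM (2.49, FDR 4.61e-14). Its vehicle level lay under the lowest mean level in the table, 0.787 CPM, so it entered the table through its CX-5461 level. The 2 that fell were H2-DMa (-0.44, FDR 3.20e-06) and H2-DMb1 (-0.28). In contrast, of 19 MHC class I presentation genes 15 fell and none rose, with a median of -0.34. B2m, the shared light chain, went from 1065 to 879 CPM (-0.28, FDR 0.00643), H2-K1 from 697 to 566 CPM (-0.30, FDR 0.00861), the peptide transporter Tap1 from 142 to 104 CPM (-0.45, FDR 6.62e-04) and the immunoproteasome subunit Psmb8 from 65.7 to 48.7 CPM (-0.43, FDR 2.09e-05). Nlrc5, the activator of class I genes, fell by 0.69 on the log2 scale (FDR 5.05e-04). Genes of the H2-Q and H2-T families are near-identical copies, and how their reads were split is uncertain.

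Red cell genes did not move as one. Of 21 measured genes of the red cell membrane and its transcription factors 17 rose and 1 fell, with a median of 1.73. Only 10 of them reached 5 CPM, of which 6 rose and 1 fell. Some of the others, such as Epor (0.537 to 2.86 CPM), lay with vehicle under 0.787 CPM, the lowest mean level in the table. Such genes enter the table only through their CX-5461 level, so these counts cannot stand for the list as a whole. Slc4a1, the anion exchanger band 3, went from 24.6 to 62.7 CPM (1.35, recovered SE 0.51, FDR 0.0299), Ank1, erythroid ankyrin, from 2.16 to 9.74 CPM (2.17, SE 0.548, FDR 5.37e-04) and the transcription factor Klf1 from 1.51 to 5.1 CPM (1.76, FDR 0.00166). The SEs of these genes were several times those of granule genes. Globin and heme synthesis genes were at nearly the same level in both groups, with 2 higher, 1 lower and 12 of 15 not passing, and a median of 0.02. Hbb-bs stood at 281 and 240 CPM (-0.23, FDR 0.749), Hba-a1 at 269 and 250 CPM (-0.11, FDR 0.89) and Alas2, the erythroid first step of heme synthesis, at 16.4 and 17.1 CPM (0.07, FDR 0.935). The adult globin genes are near-identical pairs whose reads cannot be assigned with certainty.

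Other marrow lineages were listed at low levels. Of 13 mast cell, basophil and eosinophil genes 10 rose and 1 fell. Prss34, a basophil protease, went from 0.954 to 14.2 CPM (3.89, recovered SE 0.368, FDR 7.29e-24), the largest rise among genes at a mean of 5 CPM or more. Its vehicle level lay under that minimum, which it met only through its CX-5461 level. Epx, eosinophil peroxidase, went from 2.97 to 21.2 CPM (2.83, FDR 4.42e-20) and Prg2, eosinophil major basic protein, from 17.2 to 68.8 CPM (FDR 5.19e-10). Siglecf was the single fall (-0.52, FDR 7.11e-07), and Gata2 stood at 6.15 and 6 CPM (-0.04, FDR 0.949). Of 18 B and plasma cell genes only 8 were in the table, and 3 rose. Of 17 T and NK cell genes 3 were listed and 2 rose, Cd4 (1.07 to 5.35 CPM) and Lck. Of 13 megakaryocyte genes 7 were listed and 4 rose. A gene that is low with vehicle enters the table only if it is high enough elsewhere, so these counts cannot stand for the lists as a whole.

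**Figure D3:**
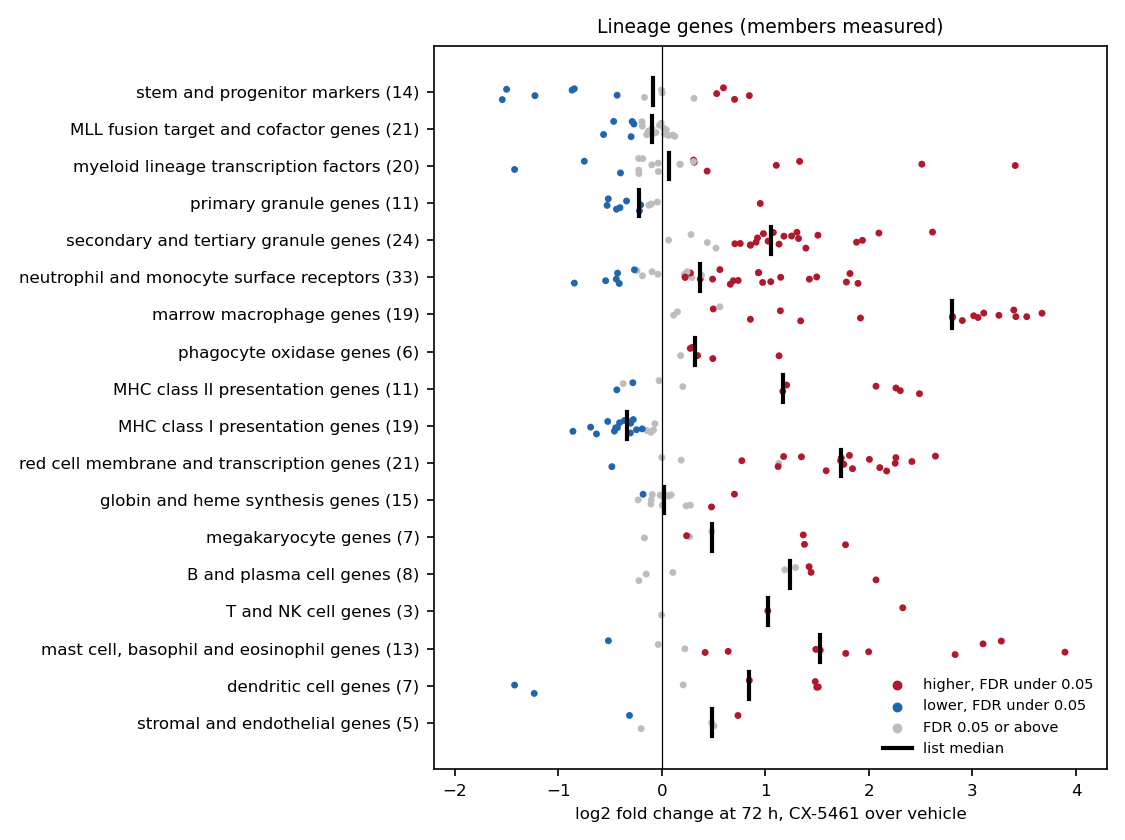
Log2 fold change of CX-5461 over vehicle at 72 h for each measured gene of 18 lineage lists in the authors' deposited table (points; red rose, blue fell, grey did not pass an FDR of 0.05), with the list median as a black bar and the number measured in brackets. All 24 secondary and tertiary granule genes and all 19 marrow macrophage genes lie right of 0, and all 19 MHC class I genes lie left of it.

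Interferon-stimulated genes fell. Of 38 measured, 31 were lower and 1 was higher, with a median of -0.76 and a summed level that went from 2057 to 1313 CPM. Rtp4, a chaperone of G protein-coupled receptors, went from 32.1 to 9.06 CPM (log2 fold change -1.82, recovered SE 0.119, FDR 6.94e-50). The transcription factors of the pathway fell as well, Irf7 from 45.2 to 15.8 CPM (-1.52, FDR 5.13e-29) and Irf9 from 102 to 55.3 CPM (-0.89, FDR 1.16e-23). Stat2, the partner of IRF9, did not pass, at 68.7 and 68.4 CPM (-0.01, FDR 0.975), nor did Irf1 (0.17, FDR 0.178). The RNA sensors Ifih1 (-0.67, FDR 5.52e-14) and Dhx58 (-1.05, FDR 1.01e-20), the antiviral effectors Ifit1 (12.2 to 3.58 CPM, -1.76, FDR 6.03e-20), Oas3 (66.3 to 33.3 CPM, -0.99, FDR 5.63e-25) and Isg15, a ubiquitin-like modifier (19.1 to 7.82 CPM, -1.29, FDR 2.18e-13), and the feedback protease Usp18 (-1.72, FDR 3.83e-21) all fell. Iigp1, an immunity-related GTPase, was the single rise, from 0.9 to 2.57 CPM (1.52, FDR 0.00132). Oas1a and Oas1g are close paralogs that may share reads.

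These genes share a promoter element in part, and 4 promoters are printed to show where it lies. RefSeq promoter windows (build GRCm38.p6, from 250 bases before to 50 after the transcript start) were matched by symbol for 27 of the 38 genes, with 33 windows. The core of the interferon-stimulated response element was searched as 2 copies of GAAA with any 2 bases between them, on both strands, with overlapping matches counted, a motif chosen after the fall of these genes had been seen. It was present in 16 of the 33 windows (48.5%), against 3.44% of all 32851 windows of the reference table and 3.26% of the windows of genes in the 72 h table. Among the 21 genes with a window that fell, 13 held it, beside 16 of all 27 genes with a window. Gbp2, Ifit3 and Stat2 held it and did not pass, while Irf1, Isg20 and Samd9l neither held it nor passed. Whether the motif goes with the fall was not tested. The windows below run 5′ to 3′ on the gene's strand, and the capitals mark the matches. Isg15 (chr4:156200769-156201068, minus strand) has 3 overlapping matches whose first bases lie at -78, -72 and -66 from the start. Ifit1 (chr19:34640639-34640938, plus strand) has 2 on the other strand, at -104 and -85. Irgm1, an immunity-related GTPase that fell by 0.64 on the log2 scale (chr11:48871371-48871670, minus strand), has 2 at -30 and -24. Oas3 (chr5:120777610-120777909, minus strand) has 1 at -75.
Isg15: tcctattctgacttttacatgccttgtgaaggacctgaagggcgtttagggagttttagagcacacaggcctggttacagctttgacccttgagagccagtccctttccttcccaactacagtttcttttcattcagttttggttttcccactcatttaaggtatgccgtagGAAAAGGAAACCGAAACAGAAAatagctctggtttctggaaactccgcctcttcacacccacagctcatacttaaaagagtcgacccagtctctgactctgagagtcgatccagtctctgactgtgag
Ifit1: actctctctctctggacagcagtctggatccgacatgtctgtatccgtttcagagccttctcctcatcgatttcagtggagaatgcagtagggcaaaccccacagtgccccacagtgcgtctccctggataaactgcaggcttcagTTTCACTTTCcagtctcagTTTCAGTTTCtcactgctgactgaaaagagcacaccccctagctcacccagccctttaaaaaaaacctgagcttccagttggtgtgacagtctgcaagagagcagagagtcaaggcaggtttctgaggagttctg
Irgm1: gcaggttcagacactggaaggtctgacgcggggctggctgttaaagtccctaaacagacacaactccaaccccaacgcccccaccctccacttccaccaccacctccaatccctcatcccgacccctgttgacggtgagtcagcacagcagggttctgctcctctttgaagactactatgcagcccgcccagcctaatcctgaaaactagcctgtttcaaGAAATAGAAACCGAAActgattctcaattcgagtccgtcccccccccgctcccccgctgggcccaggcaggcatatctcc
Oas3: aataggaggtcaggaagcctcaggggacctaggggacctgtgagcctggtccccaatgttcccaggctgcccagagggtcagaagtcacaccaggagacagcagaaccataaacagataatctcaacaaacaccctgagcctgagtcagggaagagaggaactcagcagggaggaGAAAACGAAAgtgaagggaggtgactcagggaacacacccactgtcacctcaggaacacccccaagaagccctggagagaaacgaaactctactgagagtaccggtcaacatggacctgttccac
A match is a description of the letters and not a measured binding site. Irf7, Irf9 and Xaf1 fell without a match in their windows.

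The same search was run for 5 other motifs, each in the windows of 1 list. GATA motifs (AGATAA or TGATAA) were found in 9 of the 17 windows of measured red cell membrane and transcription genes (52.9%), against 18.6% of all windows and 10.6% of the windows of genes in the 72 h table. E2F-like motifs (TTCCCGC or TTGGCGC) were found in 23 of 42 windows of G1/S and replication genes (54.8%), against 6.81% of all windows and 11.8% of those of the 72 h table. In G2/M genes the CHR motif (TTTGAA) was found in 30 of 41 windows (73.2%, against 17.9% of all and 12.4% of the table) and CCAAT in 33 of 41 (80.5%, against 37.4% and 38.2%). The E-box CACGTG was found in 12 of 58 windows of ribosome biogenesis factors (20.7%, against 7.15% and 9.99%). Apart from red cell genes, most genes with these motifs did not pass at 72 h.

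Inflammatory and immediate early genes were higher in part. Of 22 genes of the NF-kB family, its inhibitors and targets, 10 rose and none fell, with a median of 0.27. Il1rn, the interleukin 1 receptor antagonist, went from 19.3 to 66.8 CPM (1.79, recovered SE 0.187, FDR 1.03e-19), Nfkbia, the inhibitor IkBa, from 67.5 to 102 CPM (0.60, FDR 8.59e-10) and Relb from 5.07 to 9.06 CPM (0.84, FDR 9.74e-10). Of 22 immediate early and AP-1 genes 13 rose and 1 fell, with a median of 0.42. Fos went from 11.2 to 33.5 CPM (1.58, SE 0.553, FDR 0.0177), Jun from 8.79 to 25.4 CPM (1.53, SE 0.608, FDR 0.0401) and Dusp1, a MAP kinase phosphatase, from 4.43 to 20 CPM (2.17, SE 0.622, FDR 0.00275). Dusp6, the ERK phosphatase, had a smaller fold and a smaller error, from 83.9 to 133 CPM (0.67, SE 0.0779, FDR 7.78e-16). Egr1 did not pass (0.30, FDR 0.357).

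The shares of amino acid and endoplasmic reticulum stress genes that passed, 37.0% and 33.3%, were near the 31.2% of all genes. Of 27 genes of the ATF4 response 8 rose and 2 fell, with a median of 0.15. Atf4 itself went from 212 to 324 CPM (0.61, recovered SE 0.112, FDR 8.79e-07) and Ddit3, which encodes CHOP, from 8.64 to 11.8 CPM (0.45, FDR 0.00713). Asns, asparagine synthetase, a standard ATF4 target, stood at 132 and 124 CPM (-0.09, FDR 0.436), and Trib3 did not pass either (-0.30, FDR 0.395). Of the 30 genes of the unfolded protein response 8 rose and 2 fell, with a median of 0.02. Hspa5, the chaperone BiP, went from 856 to 1111 CPM (0.38, FDR 1.80e-04), Herpud1 from 70.7 to 99.5 CPM (0.49, FDR 1.44e-08) and Dnajb9 from 22.9 to 34.7 CPM (0.60, FDR 5.61e-07). The sensor Ern1, which encodes IRE1, fell (-0.47, FDR 9.47e-07), and its substrate Xbp1 did not pass (-0.07, FDR 0.568). Of 24 heat shock and chaperone genes 4 rose and 3 fell, with Dnajb1 at 0.76 (FDR 2.18e-11) and the mitochondrial chaperonin Hspe1 at -0.27 (FDR 0.0474).

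Oxidative and iron genes rose in part. Of 24 NRF2 and oxidative stress genes 10 rose and none fell, with a median of 0.13. Apart from Hmox1, these included the ferritin chains Fth1 (374 to 567 CPM, 0.60, recovered SE 0.0922, FDR 1.68e-09) and Ftl1 (0.42, FDR 3.28e-04) and thioredoxin reductase Txnrd1 (0.37, FDR 1.13e-05). Gclc (-0.09, FDR 0.449) and Gclm (-0.16, FDR 0.221), the subunits of the enzyme that limits glutathione synthesis, did not pass. Of 18 iron genes 9 rose and none fell, with a median of 0.24. Slc40a1, the iron exporter ferroportin, went from 94.1 to 170 CPM (0.85, FDR 1.96e-04), Slc11a1, a phagosome metal transporter, from 9.18 to 25.8 CPM (1.49, FDR 2.75e-31) and Tfrc, the transferrin receptor, from 95.7 to 128 CPM (0.42, FDR 9.81e-05). Hmox1, Slc40a1 and Slc11a1 are also high in macrophages, and macrophage genes, a list that includes Hmox1, rose in the same samples. Any link between these rises was not tested.

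Of 51 autophagy and lysosome genes 13 rose and 3 fell, with a median of 0.12, so the share that passed (31.4%) was near that of all genes. Tfe3, a transcription factor for lysosome genes, went from 41.3 to 65.8 CPM (0.67, FDR 1.59e-11), Ctsd, cathepsin D, from 550 to 763 CPM (0.47, FDR 1.65e-06) and the autophagy receptor Sqstm1 from 117 to 149 CPM (0.35, FDR 8.50e-05). Hexa (-0.40, FDR 1.41e-04), Npc2 (-0.39, FDR 1.32e-04) and Lamp1 (-0.22, FDR 0.013) fell. Hypoxia response genes fell in 9 of 18 cases and rose in 1, with a median of -0.24. Pdk1, which holds pyruvate out of the mitochondria, went from 42.7 to 26.3 CPM (-0.70, recovered SE 0.108, FDR 2.18e-09), the mitophagy receptor Bnip3 from 25.1 to 14.4 CPM (-0.81, FDR 3.12e-13) and the oxygen sensor Egln3 from 42 to 25.7 CPM (-0.71, FDR 3.41e-10). Vegfa (-0.11, FDR 0.573), Slc2a1 (-0.14, FDR 0.367) and Hif1a (-0.12, FDR 0.285) did not pass. Of 38 genes of the DNA damage checkpoint and repair 8 fell and 1 rose, with H2afx at -0.67 (182 to 114 CPM, FDR 3.57e-16) and the uracil glycosylase Ung at -0.51 (FDR 3.08e-07).

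**Figure D4:**
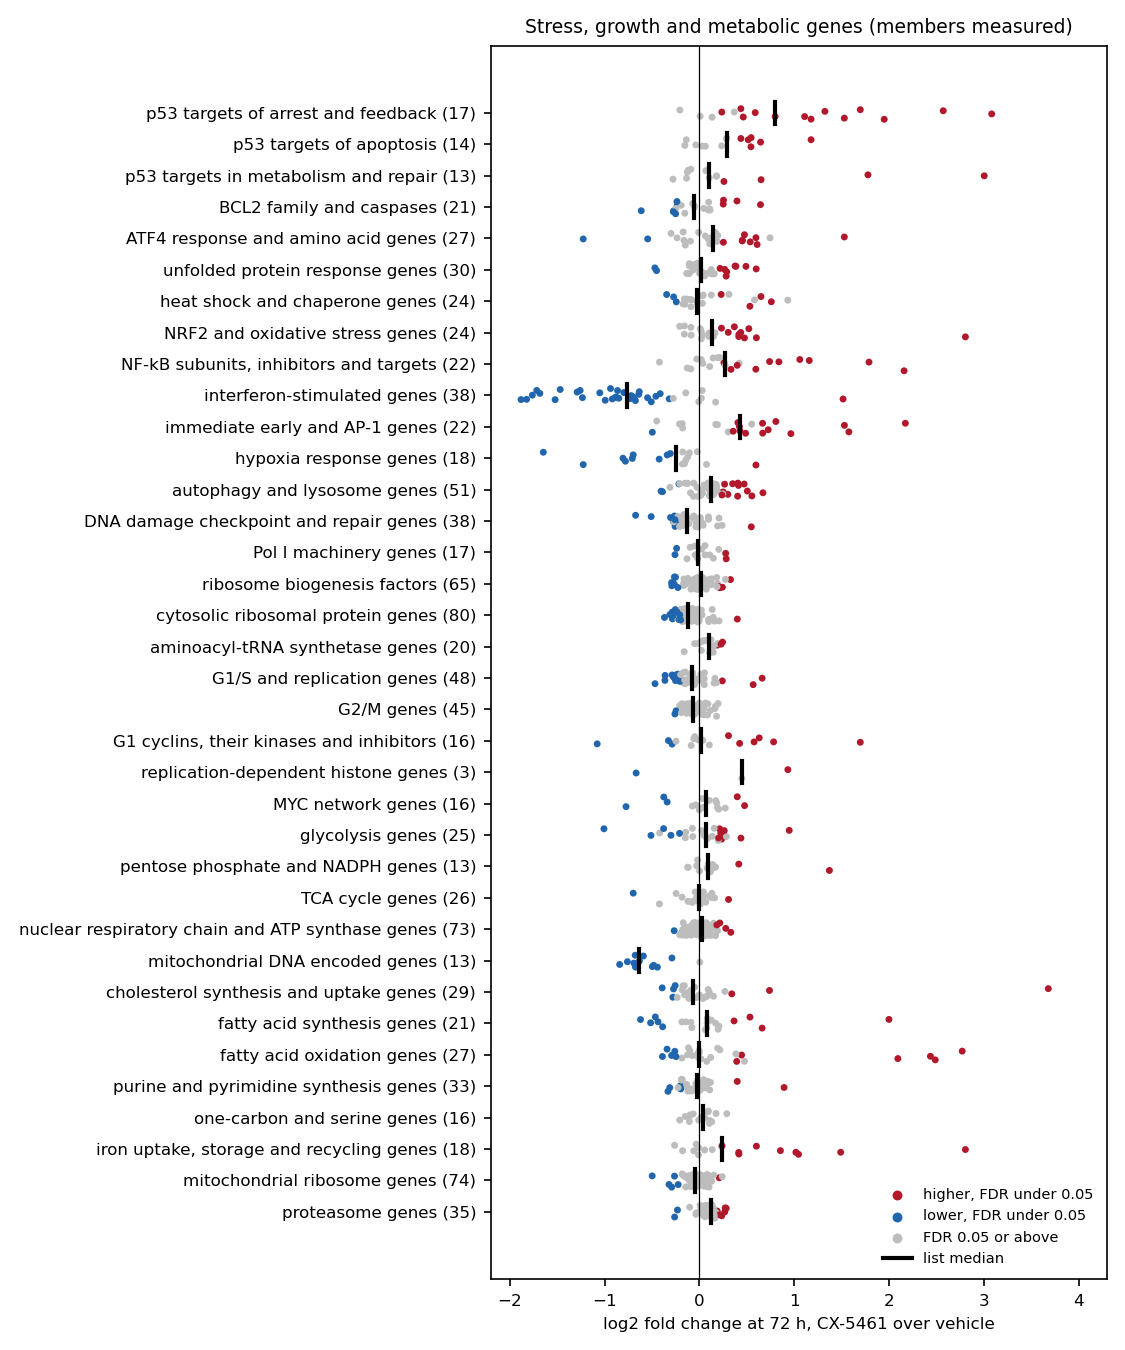
Log2 fold change of CX-5461 over vehicle at 72 h for each measured gene of 36 stress, growth and metabolic lists in the authors' deposited table (points; red rose, blue fell, grey did not pass an FDR of 0.05), with list medians as black bars. The medians of most lists lie within 0.2 of 0, while those of interferon-stimulated genes (-0.76) and genes of mitochondrial DNA (-0.63) lie to the left and that of p53 arrest targets (0.80) to the right.

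The machinery that CX-5461 targets was close to its vehicle level. Of 17 Pol I machinery genes 2 rose and 2 fell, with a median of -0.02. Polr1a, the largest subunit, went from 61.3 to 74.3 CPM (0.28, recovered SE 0.0874, FDR 0.00721) and Taf1c, a subunit of the selectivity factor, from 22.9 to 27.9 CPM (0.28, FDR 0.0258). Rrn3 (0.15, FDR 0.218), Ubtf (-0.04, FDR 0.708) and Polr1b (-0.03, FDR 0.854) did not pass. Polr1b had risen at 10 h (0.54, FDR 0.00752), and its response differed between the times (-0.57, adjusted p = 0.0105). Of 65 ribosome biogenesis factors 4 rose and 7 fell, with a median of 0.02, against 23 higher and none lower at 10 h with a median of 0.34. Nop56, a core protein of box C/D particles, was higher at 10 h (0.41) and lower at 72 h, at 228 and 186 CPM (-0.29, FDR 0.00275). Of 80 cytosolic ribosomal protein genes 13 fell and 1 rose. The share that passed, 17.5%, was below the 31.2% of all genes, and the median was -0.12 with 70 of 80 negative. Rpl13a went from 1249 to 1007 CPM (-0.31, FDR 3.77e-04). Pseudogenes of ribosomal proteins are common in the mouse genome, and how their reads were split is uncertain.

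Myc fell, and the share of its network list that passed, 31.2%, was that of all genes. Myc went from 229 to 134 CPM (-0.77, recovered SE 0.117, FDR 1.02e-09) and its antagonist Mxd1 from 48.6 to 67.6 CPM (0.48, FDR 7.02e-08). In the list of 16 genes 2 rose and 3 fell, with a median of 0.07. The target Ncl, nucleolin, stood at 1022 and 1166 CPM (0.19, FDR 0.111) and Odc1, ornithine decarboxylase, at 211 CPM in both groups (-0.00, FDR 1).

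Cell cycle genes changed less than p21. Of 45 G2/M genes 2 fell, Mad2l1 (-0.26, FDR 0.00927) and Kif23 (-0.25, FDR 0.028), and none rose. Mki67 stood at 529 and 595 CPM (0.17, FDR 0.129), Ccnb1 at 132 and 137 CPM (0.05, FDR 0.728) and Cdk1 at 160 and 156 CPM (-0.03, FDR 0.816). Of 48 G1/S and replication genes 11 fell and 3 rose, with a median of -0.08. Pold1, the catalytic subunit of DNA polymerase delta, went from 257 to 186 CPM (-0.47, recovered SE 0.0811, FDR 1.37e-07) and the helicase subunit Mcm6 from 641 to 530 CPM (-0.27, FDR 6.73e-04). The 3 that rose were E2f2 (0.66, FDR 9.37e-09), Ccne1 (18.5 to 27.4 CPM, 0.57, FDR 2.56e-07) and Ccne2 (0.24). All 3 D cyclins rose, Ccnd1 by 0.58 (FDR 0.0076), Ccnd2 by 0.63 (FDR 1.24e-07) and Ccnd3 by 0.42 (FDR 1.35e-04). Their kinases Cdk4 (-0.33, FDR 8.60e-05) and Cdk6 fell, as did the inhibitor locus Cdkn2a (12.4 to 5.85 CPM, -1.08, FDR 1.57e-06).

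In metabolism the clearest change was in the mitochondrial genome. Of its 13 protein genes 12 fell and none rose, with a median of -0.63, and their summed level went from 18241 to 11957 CPM. mt-Co1, a core subunit of complex IV, went from 6572 to 4110 CPM (-0.68, recovered SE 0.115, FDR 6.83e-08), mt-Nd5 of complex I from 888 to 496 CPM (-0.84, FDR 8.22e-06), mt-Cytb of complex III from 1560 to 1006 CPM (-0.63, FDR 7.09e-08) and mt-Atp6 of complex V from 1086 to 721 CPM (-0.59, FDR 2.40e-07). mt-Nd6, the one protein gene on the light strand, fell by 0.76 on the log2 scale (FDR 3.45e-04). mt-Nd3 was the exception, at 130 and 131 CPM (0.00, FDR 0.988). The mitochondrial ribosomal RNA genes mt-Rnr1 (91.5 and 93.2 CPM, 0.03, FDR 0.877) and mt-Rnr2 (88.4 and 107 CPM, 0.27, FDR 0.348), chosen after their values were seen, did not pass. The nuclear genes for the same complexes did not follow. Of 73 measured 4 rose and 1 fell, with a median of 0.03. Of 74 mitochondrial ribosome genes 5 fell and 1 rose, with Mrpl19 the largest fall (-0.50, FDR 7.00e-09).

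Glycolysis was rearranged within the list of 25, with 7 higher and 5 lower. Slc2a3, the transporter GLUT3, went from 44.5 to 85.9 CPM (0.95, recovered SE 0.14, FDR 4.08e-10) and Pkm, pyruvate kinase, from 2071 to 2806 CPM (0.44, FDR 1.73e-05), while Pfkl, a phosphofructokinase, went from 150 to 122 CPM (-0.30, FDR 0.00275). The lactate dehydrogenase genes moved apart, Ldhb from 21.6 to 10.8 CPM (-1.01, FDR 1.65e-12) and Ldha from 355 to 409 CPM (0.20, FDR 0.0216). Of 13 pentose phosphate and NADPH genes 2 rose, the entry enzyme G6pdx (0.42, FDR 8.26e-06) and Me1 (1.37, FDR 1.40e-06). In the TCA cycle list of 26 only Mdh2 (0.31, FDR 0.00144) rose and only Pdk1, given above, fell.

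Lipid genes moved in both directions within each list, as did the genes of the table as a whole. The shares that passed were 24.1% for cholesterol genes, 42.9% for fatty acid synthesis and 40.7% for fatty acid uptake and oxidation, beside 31.2% of all genes. Of 29 genes of cholesterol synthesis, uptake and efflux 3 rose and 4 fell, with a median of -0.07. Abca1, the cholesterol exporter, went from 0.687 to 8.81 CPM (3.68, recovered SE 0.391, FDR 5.00e-19), and Nr1h3, which encodes LXR alpha, from 3.67 to 6.13 CPM (0.74, FDR 4.51e-04). Sqle, squalene epoxidase (41.4 to 31.5 CPM, -0.39, FDR 0.00439), and the sterol sensor Insig1 (-0.27, FDR 0.0112) fell. Both had risen at 10 h (0.70 and 0.43), and the differences of -1.09 and -0.71 passed (adjusted p = 2.80e-06 and 3.36e-04). Of 21 fatty acid synthesis genes 4 rose and 5 fell. The desaturases Fads1 (-0.62, FDR 2.26e-09) and Scd2 (288 to 220 CPM, -0.39, FDR 8.84e-05) fell, while Scd1 rose from 0.56 to 2.24 CPM (FDR 5.08e-09). Of 27 genes of fatty acid uptake and oxidation 6 rose and 5 fell. The largest rises were in lipid uptake and its regulator, Lpl, lipoprotein lipase (4.71 to 25.5 CPM, 2.44, FDR 2.69e-12), Cd36 (1.31 to 7.33 CPM, 2.49, FDR 6.90e-11) and Pparg (2.77, FDR 3.58e-20), genes that macrophages also express. The enzymes Hadh (-0.34, FDR 0.00749) and Acadm (-0.26, FDR 0.0103) fell.

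The remaining biosynthetic lists were near their vehicle levels. Of 33 purine and pyrimidine genes 2 rose and 4 fell, among them Cad, the first step of pyrimidine synthesis (144 to 189 CPM, 0.40, FDR 0.00327), and Impdh2 (-0.20, FDR 0.0293). None of 16 one-carbon and serine genes passed at this FDR. The largest value there was that of Mthfd1l (0.29, FDR 0.0601). Of 35 proteasome genes 6 rose and 2 fell, with a median of 0.12. The 2 that fell, Psme1 (-0.26, FDR 0.0209) and Psme2 (-0.23, FDR 0.0128), are the interferon-inducible activator subunits, while the regulatory particle subunit Psmd1 rose (0.28, FDR 0.0013). Of 20 aminoacyl-tRNA synthetase genes 3 rose and none fell.

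The 12 largest falls at 5 CPM or more included Apba1, a neuronal-type adaptor (19.3 to 4.71 CPM, -2.03, recovered SE 0.307, FDR 9.18e-10), Itga1, the collagen receptor chain (13.1 to 3.27 CPM, FDR 2.09e-05), Thbd, thrombomodulin (-1.59, FDR 7.21e-12), and the homeobox gene Cux2 (25.1 to 8.7 CPM, -1.53, FDR 4.01e-44). Ifi209 (-1.92, FDR 4.71e-16) and Slfn5 (-1.61, FDR 4.30e-18), both interferon-inducible, were also among them, beside Rtp4, Ifit1, Usp18 and Oasl2 of the interferon list. Among abundant genes chosen after their values were seen, Plac8 (1514 to 952 CPM, -0.67, FDR 1.17e-16), F13a1 (835 to 544 CPM, -0.62, FDR 4.55e-13) and Ly6c2 (1113 to 738 CPM, -0.59, FDR 1.90e-10), the last a marker of classical monocytes, fell. The cytoskeletal genes Flna (2540 to 3905 CPM, 0.62, FDR 4.38e-12) and Myh9 (950 to 1606 CPM, 0.76, FDR 5.99e-14) rose.

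In the authors' deposited tables, most late granule, red cell membrane and macrophage genes were lower at 10 h and higher at 72 h. Of 696 genes that passed at both times, which are 18.2% of the 3818 that passed at 72 h and 54.6% of the 1274 that passed at 10 h in both tables, 92 were higher at both times and 67 lower at both. Another 468 were higher at 72 h and lower at 10 h, and 69 the reverse. The 468 are 55.5% of the 843 genes of both tables that were lower at 10 h. Secondary and tertiary granule genes had a median of -1.60 at 10 h and 1.05 at 72 h, and the difference passed for 23 of 24. Ltf went from -2.54 at 10 h to 2.10 (difference 4.63, adjusted p = 6.89e-29). Red cell membrane and transcription genes had a median of -5.69 at 10 h, and the difference passed upward for 17 of 19. Marrow macrophage genes had -0.78, and it passed for 13 of 16. MHC class I genes had a negative median at both times, -0.21 at 10 h with 3 of 19 lower and -0.34 at 72 h. Interferon-stimulated genes had a median of -0.13 at 10 h, with 5 of 37 lower, and genes of mitochondrial DNA -0.09, with none passing.

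One 10 h vehicle library stood apart in these lineage genes, and the values with and without it are given here. Globin and heme genes summed to 6390, 19600 and 1470 CPM in the 3 vehicle libraries at 10 h and to 1130, 1350 and 1230 CPM in the 3 CX-5461 libraries. Red cell membrane and transcription genes summed to 989, 2530 and 436 CPM with vehicle and 335, 334 and 337 CPM with CX-5461. Secondary and tertiary granule genes summed to 15200, 26900 and 13400 CPM against 6310, 7710 and 6840 CPM. The 2nd vehicle library was the highest in all 3 lists. None of these groups overlapped, though the gap for globin and heme genes was small (1470 against 1350 CPM). Lists of other kinds did not overlap either, such as ribosome biogenesis factors (7970, 6830 and 7360 CPM with vehicle, 9470, 9460 and 9030 CPM with CX-5461), so the lack of overlap is not particular to lineage genes. Marrow macrophage genes summed to 539, 880 and 630 CPM with vehicle and 539, 545 and 504 CPM with CX-5461, and these groups did overlap. In a quasi-likelihood fit of the 10 h counts with edgeR the granule list's 10 h median was -1.60, and -1.23 without the 2nd vehicle library. The same step moved the 10 h median from -0.78 to -0.46 for macrophage genes and from -0.98 to -0.47 for MHC class II genes. The difference then passed for 13 of 16 macrophage genes in place of 14, and for 6 of 10 class II genes in both fits. The difference passed for 22 of 24 granule genes and 17 of 19 red cell genes in both fits. Fewer list genes were lower at 10 h in the quasi-likelihood fit of all libraries than in the authors' deposited table. The counts were 2 of 16 in place of 10 for macrophage genes and 1 of 10 in place of 5 for class II genes. They were 15 of 24 in place of 23 for granule genes and 15 of 19 in place of 17 for red cell genes. The count of genes higher at 72 h and lower at 10 h was 270 in that fit in place of 468, and 325 without the 2nd vehicle library. It fell to 1, 0 and 0 without the 1st, 2nd and 3rd CX-5461 library, when the fit called 1, 0 and 0 genes lower at 10 h. The count of genes whose response was higher at 72 h was 1797 in that fit and 1375 to 1934 with 1 library of 10 h left out.

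**Figure D5:**
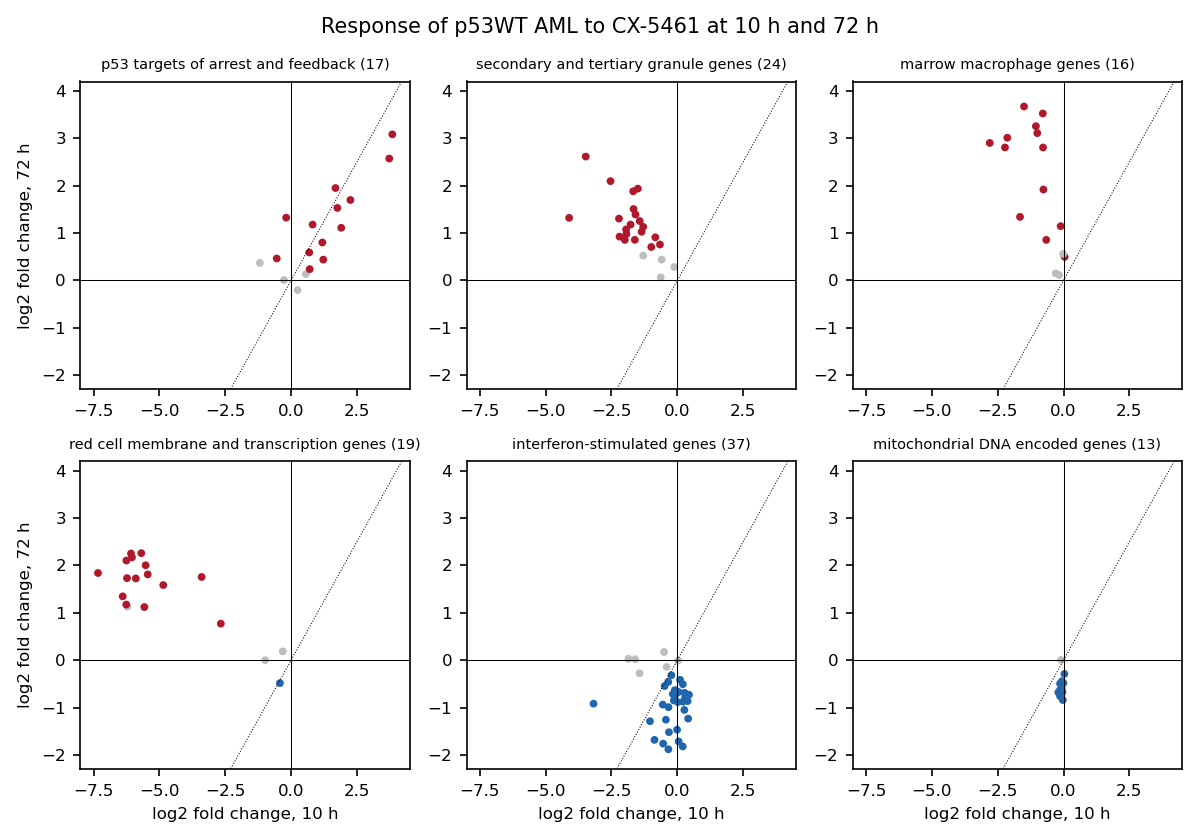
Log2 fold change of CX-5461 over vehicle at 10 h (horizontal) against 72 h (vertical) for the genes of 6 lists measured at both times, from the authors' deposited tables (points; red rose and blue fell at 72 h, grey did not pass an FDR of 0.05; the dotted line marks equal values). p53 arrest targets lie on both sides of the dotted line, and their difference passed upward for 3 of 17 and downward for 7. Most granule, macrophage and red cell genes lie in the upper left, negative at 10 h and positive at 72 h. Most interferon-stimulated and mitochondrial DNA genes lie below 0 at 72 h around 0 at 10 h.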

How the data were processed

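RNA from GFP-positive AML cells was sequenced with a TruSeq kit that does not mark strand, per the labels' protocols. The submitters' processing notes name CASAVA 1.8.2, Bowtie, HTSeq, edgeR and the mm9 build; their settings and the annotation are not given in the sources used here. The deposited 72 h table has 4 values a gene, per the file headers: a log2 fold change, a mean level as log2 CPM, a p-value and an FDR. The 10 h table holds the same and the deposited raw counts of 6 libraries (21578685 to 48118513 each). The depth behind the 72 h table is unknown. The planned edgeR fit could not be run at 72 h without counts, so the authors' FDR was used; it equals Benjamini-Hochberg adjustment over the table. The sign was checked on the 10 h counts (r = 1.000 across genes with the counted ratio of CX-5461 to vehicle) and taken to be the same at 72 h, where it could not be checked. The difference test assumes normal errors. Count columns at 10 h were tied to groups, not to titled samples.

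Members and gene lists were chosen with earlier results of these data known. Genes were named by rule: the 12 largest rises and falls at a mean of 5 CPM or more, the 4 list members with the smallest p, and a fixed set of anchor genes. The mean is over both groups, so a gene can meet the minimum through a single group. Any other gene named was picked with its values in view. Gene symbols came from a gene name table, and promoter sequences from RefSeq. The 10 h fit used edgeR 4.0.16 in R 4.3.3 with TMM scaling, treatment as the only term. Alternatives were stricter thresholds, a minimum of 5 CPM, centring, symbols only, and, added after seeing the data, leaving out each 10 h library. The p53null table was not used here.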

Additional observations from a re-analysis of the deposited data

Results flagged for a closer look

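Genes whose response to CX-5461 differed between the 2 times were looked at again. By the test of the difference itself, 1436 genes had a higher response at 72 h than at 10 h and 1124 a lower one. Of the 12277 genes compared, 537 passed the authors' FDR at both times in opposite directions. The difference passed for all 537, so it adds no support to such a pair of calls. Among the 253 named genes, chosen in part by a small p at 72 h, 45 were of this kind. In the quasi-likelihood fit, 270 genes were higher at 72 h and lower at 10 h. That count was at most 1 when any CX-5461 library of 10 h was left out. Values below are the difference of the log2 fold changes, 72 h minus 10 h. The part of the title tag that only the 10 h samples carry in these differences cannot be told apart from time, and each difference is between comparisons with separate controls.

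Only 3 of the 45 were higher at 10 h and lower at 72 h: Stc2, a secreted glycoprotein (-2.23), Sqle (-1.09) and Nop56 (-0.70). The other 42 were lower at 10 h and higher at 72 h. Ptprc, fixed above as a marker of this leukemia, had a difference of 0.62. Among neutrophil granule, surface receptor and phagocyte oxidase genes the difference was 1.12 for Ncf1, 1.50 for Itgam, 2.43 for Cybb, 2.53 for Fcnb, 3.17 for Wfdc21, 3.19 for Cxcr2, 3.52 for Ngp, 3.92 for Fpr2, 4.05 for Fpr1, 4.63 for Ltf and 6.09 for Ly6g. Among macrophage and class II genes it was 2.48 for Slc11a1, 2.81 for Il1rn, 2.87 for H2-Ab1, 3.58 for Hmox1, 4.11 for Mrc1, 4.21 for Itgad, 4.31 for Axl, 5.04 for H2-Eb1, 5.15 for C1qc, 5.17 for Cd5l, 5.25 for Cd74, 5.26 for H2-Aa and 5.32 for Maf. Genes of other lineages were Cd9 (1.58), Blvrb (2.37), Lck (2.93), Ear2 (3.24), Itga2b (4.06), Cd79a (5.15) and Tspan33 (7.95). The iron gene Slc11a1 had 2.48 and the NF-kB list gene Il1rn 2.81. Metabolic, cell cycle and regulatory genes were E2f2 (1.86), G6pdx (0.87), Dgat1 (1.24), Nr1h3 (1.57), Klf6 (1.61), Hist1h2bc (1.82), Mxd1 (1.86), Slc2a3 (2.55), Scd1 (3.74) and Cd36 (7.09).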

How the results depend on the processing

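The 72 h table gives no counts, so the fits with DESeq2, with other scaling or no filter and with replicates left out were not run. No paired analysis was possible because the 72 h comparison carries no value per library and the 10 h count columns cannot be tied to the numbered titles. With an added minimum of 1 on the size of the log2 fold change, 419 genes were higher and 146 lower at 72 h. Centring on the median of genes of at least 100 CPM gave 1813 higher and 2241 lower, so 44.7% of calls were higher in place of 51.6%. A count of 610 genes had a lower response at 72 h than at 10 h when the adjusted p had to be under 0.01, in place of 1124. With the quasi-likelihood fit of all 10 h libraries that count was 1669, and with 1 library of 10 h left out it was 1159 to 1724 (1716 without the 1st and 1724 without the 3rd vehicle library); the cause was not tested. No named gene reversed under any alternative run, an outcome fixed in advance. The thresholds, the minimum level and the symbol filter keep each log2 fold change, and centring subtracts only -0.008 or 0.027. An FDR of 0.01 ended the call of 16 of 253 named genes and the fold minimum that of 136. A minimum of 5 CPM moved 7 of 53 list medians: MHC class II to 0.70, megakaryocyte to 0.24, B and plasma cell to 0.11, dendritic cell to -0.51, stromal to -0.31, histone to -0.11 and p53 arrest targets to 0.59; no T and NK cell gene reached it. At 10 h the authors' table calls 1319 genes, the quasi-likelihood test 1027.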

Other observations

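Lars2, the mitochondrial leucyl-tRNA synthetase, was the most abundant gene to change by over 2-fold downward, from 3169 to 1266 CPM in the authors' deposited table (log2 fold change -1.32, FDR 8.53e-05). Its antisense partner Gm15564 changed alike, from 83.9 to 31.7 CPM (-1.41, FDR 2.24e-05). The kit does not mark strand, so reads of this overlapping pair cannot be told apart. The aminoacyl-tRNA synthetase list had a median mean level of 129 CPM, well below that of Lars2. Whether the reads at this locus came from synthetase mRNA was not tested. The nuclear long noncoding RNA Neat1, the scaffold of paraspeckles, went from 192 to 107 CPM (-0.84, FDR 3.81e-04). These genes were chosen after their values were seen.

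By gene class, 17.3% of 11216 protein coding genes were higher and 15.2% lower at 72 h. Of 100 lincRNA genes 10 were higher and 23 lower, and of 10 genes of bidirectional promoter lncRNA 6 were lower and none higher. Of 12 miRNA gene models 5 were lower. At such low levels (medians of 3.39, 2.32 and 4.73 CPM) these classes hold few reads each.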
